A study of Rattus norvegicus with 20 samples.

Results

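The genes described here are 9 components and close regulators of the circadian clock (Clock, Per1, Per2, Per3, Cry1, Cry2, Dbp, Bhlhe40 and Bhlhe41), taken as every probe set whose only annotated gene symbol is one of these names. They were measured by 15 probe sets, of 31042 probe sets and 14217 named genes on the array. The study profiled nasal epithelium of untreated adult Sprague-Dawley rats with 20 expression arrays, 1 per tissue sample, to describe normal gene expression in a tissue exposed to inhaled chemicals. Samples of epithelium collected by hand came from 13 animals. Males gave 6 olfactory and 6 respiratory arrays, and females gave 2 olfactory and 6 respiratory arrays. Both tissues were available from 7 rats, 5 male and 2 female, and an array is named here by its sex, its tissue and the number of its rat. All animals were naive, with no treatment or genetic change, aged 11, 13 or 14 weeks, and were killed with an overdose of ketamine. Neither the hour nor the day of collection is stated in the labels.

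The circadian clock of a cell is a loop of transcription and repression that takes about a day. CLOCK and its partner BMAL1 bind E-boxes and switch on the period genes Per1, Per2 and Per3 and the cryptochrome genes Cry1 and Cry2, whose proteins return to the nucleus and shut CLOCK and BMAL1 off. The same pair drives Dbp, a transcription factor that acts on D-boxes of output genes, Bhlhe40 and Bhlhe41 (also known as DEC1 and DEC2), which repress through E-boxes, and Nr1d1, the nuclear receptor that represses Bmal1. In peripheral tissues Dbp and Nr1d1 RNA therefore peaks roughly opposite to Bmal1 RNA, and a single sample taken at one hour shows one phase of the cycle.

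The results on array-to-array variation turn on Per2, Per3, Dbp and Bhlhe41, the genes of the 4 pairs that passed the correlation test in respiratory epithelium. The 250 bases before the annotated start of each are shown 5′ to 3′ on the gene's own strand, from RefSeq's rat assembly GRCr8, with clock motifs in capitals. The stretches lie at chr9:99496994-99497243 for Per2, minus strand, chr5:166777801-166778050 for Per3, minus strand, chr1:105312006-105312255 for Dbp, plus strand, and chr4:180569356-180569605 for Bhlhe41, minus strand.
Per2: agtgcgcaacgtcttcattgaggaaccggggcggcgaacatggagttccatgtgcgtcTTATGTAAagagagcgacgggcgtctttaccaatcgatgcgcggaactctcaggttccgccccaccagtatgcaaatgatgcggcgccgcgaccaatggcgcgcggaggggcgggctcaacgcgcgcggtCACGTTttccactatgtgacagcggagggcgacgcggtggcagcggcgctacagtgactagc
Per3: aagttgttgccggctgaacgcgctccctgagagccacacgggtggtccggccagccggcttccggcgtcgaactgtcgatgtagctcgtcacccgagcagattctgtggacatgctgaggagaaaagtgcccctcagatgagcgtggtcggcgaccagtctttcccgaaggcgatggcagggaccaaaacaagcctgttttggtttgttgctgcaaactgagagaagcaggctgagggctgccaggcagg
Dbp: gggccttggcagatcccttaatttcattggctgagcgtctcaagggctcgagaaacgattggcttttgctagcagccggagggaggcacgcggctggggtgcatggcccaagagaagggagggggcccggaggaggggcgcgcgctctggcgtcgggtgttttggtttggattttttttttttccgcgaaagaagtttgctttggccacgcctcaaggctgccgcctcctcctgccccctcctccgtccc
Bhlhe41: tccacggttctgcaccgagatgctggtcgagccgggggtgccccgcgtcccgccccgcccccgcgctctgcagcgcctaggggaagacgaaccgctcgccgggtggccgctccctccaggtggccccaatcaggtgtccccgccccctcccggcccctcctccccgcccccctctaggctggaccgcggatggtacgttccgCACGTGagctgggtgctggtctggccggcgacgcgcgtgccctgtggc

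The motifs searched on both strands were the E-box CACGTG, the E-prime box CACGTT or AACGTG, and the D-box TTATGTAA, TTACATAA or TTACGTAA, and each stretch of bases can match only 1 of these words. Counted back from the annotated start, Per2 held CACGTT beginning at position -62 and TTATGTAA at position -192, and Bhlhe41 held CACGTG at position -48. No match lay in these 250 bases of Per3 or Dbp. Among the other members, Bhlhe40 held CACGTG at position -220 and Cry2 held AACGTG at position -212, while the windows of Clock and Per1 had no match. Of 33469 rat promoter windows of the same length, 5.59% held the E-box, 4.07% the E-prime box and 0.932% the D-box. A match describes letters only, and 8 of the 9 members had an entry, Cry1 not being among them.

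Values are the authors' linear signal per probe set, compared as log2(signal + 16). Marker genes followed the tissue labels in males, with 8 of 8 olfactory neuron markers called higher and 7 of 8 respiratory epithelium markers called lower in olfactory arrays. The mean olfactory neuron marker level (log2) was 11.23 on female respiratory 7, 10.67 on female respiratory 3 and 10.50 on male respiratory 1. It ran from 8.38 to 9.74 on the other respiratory arrays and from 11.93 to 12.90 on olfactory arrays. The part of this olfactory marker signal in the clock gene differences was not tested. The mean level of the added hybridization control RNAs was 12.62 (log2) on female respiratory 8, 12.14 on male respiratory 7 and 11.94 on male olfactory 10, against 11.32 to 11.76 on the other 17 arrays. Per the labels, RNA integrity numbers, known for 17 arrays, ran from 8.2 to 8.8 in olfactory and from 8.7 to 9.3 in respiratory samples. Within each sex the integrity numbers of the tissues did not overlap. They were 8.2 to 8.8 in olfactory and 9.1 to 9.3 in respiratory samples of males. In females they were 8.3 on both olfactory arrays and 8.7 to 9.3 on respiratory arrays. Each sample came from 1 animal, and how precise a value is depends on how many arrays stand behind it.

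All 9 clock genes were measured above background in most arrays through their brightest probe set, which stands for the gene below. Background is the level that 95% of the 27 probe sets for bacterial controls stayed under on the same array. The main probe sets of Clock, Per2, Cry1, Cry2, Dbp, Bhlhe40 and Bhlhe41 exceeded it on all 20 arrays. Per1 (probe set 1374855_at) fell below it on 2 male respiratory arrays. Per3 (1378745_at) fell below it on 1 female respiratory and 1 male olfactory array. A further Per2 probe set, 1378560_at, was above background on 1 of 20 arrays and carries no usable level.

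**Figure D1:**
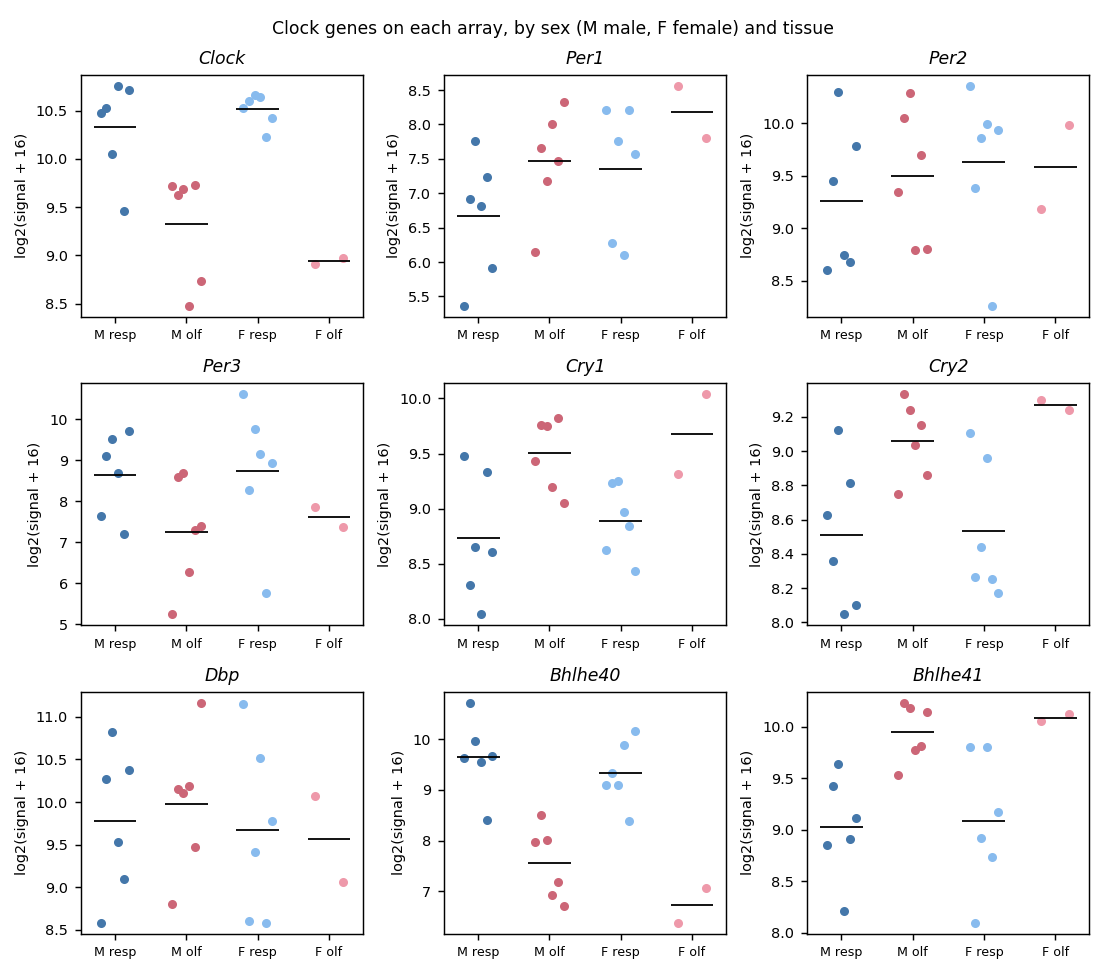
Each point is the log2(signal + 16) of a clock gene's main probe set on 1 array, by sex and tissue (resp, respiratory; olf, olfactory), and the line is the group mean. Bhlhe40 and Clock lie lower and Bhlhe41 and Cry1 higher in olfactory arrays, while Per3 and Dbp spread widely within the groups of 6 arrays.

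The tissue comparison asks which genes differ between olfactory and respiratory epithelium. In males, Bhlhe40 and Clock were lower, and Bhlhe41 and Cry1 were higher, in olfactory than in respiratory epithelium, while Per1, Per2, Per3, Cry2 and Dbp did not pass the test. These 4 of 9 members compare with 31.8% of all named genes called in the same fit, so the share of clock genes called was not far from that background. By direction, 2 of 9 were higher against 14% of all genes and 2 of 9 lower against 17.8%. Over all member probe sets, 7 of 15 passed against 25.2% of all probe sets. The median change was 0.24 (log2) over the members and -0.05 over all named genes. In tissue made of mixed cells, fewer cells of a type and less RNA per cell cannot be told apart.

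Bhlhe40, a repressor known to respond to stimulation as well as to the clock, showed the largest tissue difference of the 9. Its signal (1369415_at) ran from 324 through a median of 782 to 1668 in male respiratory epithelium, and from 89.1 through 182 to 348 in male olfactory epithelium. In females it ran from 317 through 582 to 1124 in the respiratory arrays and was 67.4 and 118 in the olfactory arrays. In males 5 of 6 olfactory arrays lay below every respiratory array, and the groups of females did not overlap. It was lower in the olfactory tissue of each of the 7 rats with both tissues. The difference was -2.10 (log2, SE 0.36, limma adjusted p = 0.00010154) in males and -2.60 (SE 0.51, adjusted p = 0.000988) in females. With the integrity number as a covariate it was -1.58 (SE 0.58, adjusted p = 0.111) in males and -1.86 (adjusted p = 0.119) in females. With the rat as a fixed block the female value was -2.02 (adjusted p = 0.187), from 2 rats.

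Clock, the activator that pairs with BMAL1, was the other member lower in olfactory epithelium. Its main probe set, 1390199_at, gave 687 to 1719 with a median of 1438 in male respiratory arrays and 341 to 835 with a median of 791 in male olfactory arrays. Female respiratory arrays gave 1184 to 1608 with a median of 1501, and female olfactory arrays 464 and 487. The male groups overlapped because male respiratory 7 was the lowest of its group, and the female groups did not overlap. Clock was lower in the olfactory tissue of 6 of 7 rats, male 7 being the exception. The change was -1.003 (SE 0.24, adjusted p = 0.00279) in males and -1.57 (SE 0.34, adjusted p = 0.0022) in females. With the rat as a fixed block it was -0.81 (adjusted p = 0.0684) in males and -1.51 (adjusted p = 0.259) in females, and with the integrity number as covariate -1.03 (adjusted p = 0.0775) in males. The probe sets disagreed in size. In males 1380098_at changed by -1.63 (adjusted p = 0.0248), 1389456_at by -0.19 (adjusted p = 0.520) and the dim 1369168_a_at by -0.77 (adjusted p = 0.153).

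The paralogue of Bhlhe40, Bhlhe41, went the other way. Its signal (1368511_at) ran from 281 through 501 to 781 in male respiratory and from 724 through 1001 to 1188 in male olfactory arrays. The female respiratory arrays spanned 258 to 880 with a median of 515, and the female olfactory arrays read 1045 and 1102. In males 5 of 6 olfactory arrays lay above every respiratory array, the female groups did not overlap, and Bhlhe41 was higher in the olfactory tissue of 7 of 7 rats. The change was 0.92 (SE 0.26, adjusted p = 0.0117) in males and 1.00 (SE 0.37, adjusted p = 0.0665) in females. The male call ended in the 11-week rats alone (0.68, adjusted p = 0.0801) and on the arrays with an integrity number, both with that covariate (0.93, adjusted p = 0.346) and without it (0.88, adjusted p = 0.0549). The female value passed without female respiratory 7 (1.14, adjusted p = 0.0349) or female respiratory 3 (1.14, adjusted p = 0.037). Both arrays had the highest Bhlhe41 signals of the female respiratory group, 880 and 875. They also had its highest mean olfactory neuron marker levels, 11.23 and 10.67 (log2), and a link between these values was not tested.

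The cryptochromes, the main repressors of CLOCK and BMAL1, tended to higher olfactory values. Cry1 (1392640_at) ran from 247 through 380 to 695 in male respiratory and from 514 through 761 to 888 in male olfactory arrays, and 3 of 6 olfactory arrays exceeded every respiratory array. Its change in males was 0.77 (SE 0.24, adjusted p = 0.0213), and it was higher in the olfactory tissue of 6 of 7 rats. That call ended without male respiratory 2 (0.68, adjusted p = 0.0576), without male respiratory 4 (0.63, adjusted p = 0.0662), in the 11-week rats alone (0.84, adjusted p = 0.0545) and with the integrity covariate (1.18, adjusted p = 0.0656). In females Cry1 ran from 329 to 592 in respiratory arrays and was 620 and 1037 in olfactory arrays (0.79, SE 0.34, adjusted p = 0.115).

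Cry2 lay close to the threshold. Its main probe set, 1372548_at, ran from 249 through 345 to 543 in male respiratory and from 414 through 531 to 629 in male olfactory arrays, a change of 0.55 (SE 0.21, adjusted p = 0.062). Within rats it was higher in the olfactory tissue in 7 of 7. The value passed in 9 of 35 alternatives, with changes from 0.40 to 0.87 over the 35. Among them were the fits without male respiratory 3 (0.67, adjusted p = 0.0254), without male respiratory 7 (0.61, adjusted p = 0.0413) and with the mean of all probe sets (0.83, adjusted p = 0.0140). The other probe set, 1369446_at, passed with a change of 1.10 (adjusted p = 0.0319). In females the main probe set changed by 0.74 (SE 0.30, adjusted p = 0.0923).

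None of the main probe sets of the 3 period genes passed. Per3 gave 131 to 832 with a median of 464 in male respiratory and 22.0 to 397 with a median of 148 in male olfactory arrays, and 2 of 6 olfactory arrays lay below every respiratory array. The change was -1.39 (SE 0.66, adjusted p = 0.134) in males and -1.14 (SE 0.93) in females. It passed with the rat as a fixed block (-1.21, adjusted p = 0.0382) and without female respiratory 8 and male respiratory 7 (-1.68, adjusted p = 0.0183), and in all in 5 of 35 alternatives. With the integrity number as a covariate the sign turned, to 0.20 (SE 1.05, adjusted p = 0.946) in males and 0.94 (SE 1.17, adjusted p = 0.747) in females. The dimmer Per3 probe set, 1388239_at, passed in males with -1.22 (SE 0.30, adjusted p = 0.00367), although only 1 of 6 male olfactory arrays was above background there. Per1 changed by 0.79 (SE 0.44, adjusted p = 0.213) and Per2 by 0.24 (SE 0.35, adjusted p = 0.690) in males. The output gene Dbp, at 369 to 1787 in male respiratory and 430 to 2280 in male olfactory arrays, changed by 0.20 (SE 0.45, adjusted p = 0.802). For Per1, Per2 and Dbp the groups overlapped widely, and intervals of about 2 SE around these values include 0.

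**Figure D2:**
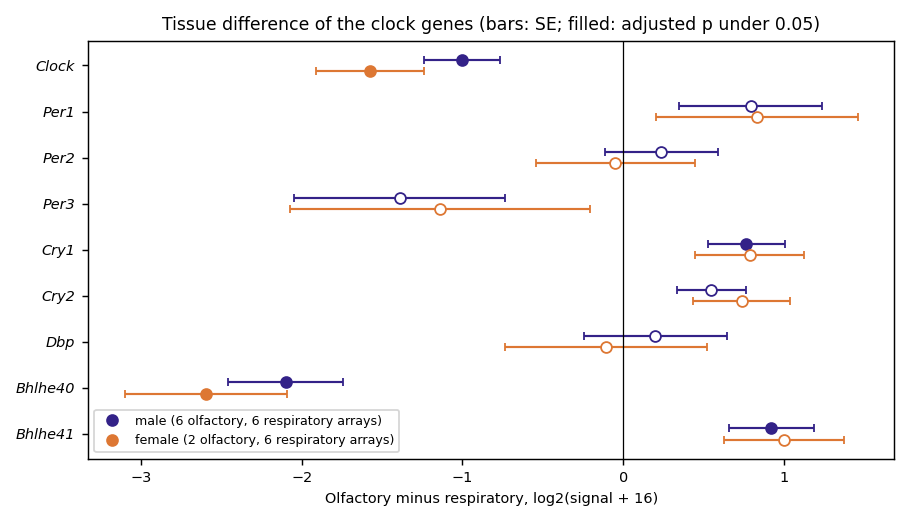
Points give olfactory minus respiratory change of each clock gene on the log2(signal + 16) scale, bars its SE, and filled points an adjusted p under 0.05. Bhlhe40 at -2.10 and Clock at -1.003 in males lie below 0 in both sexes, and Bhlhe41, Cry1, Cry2 and Per1 lie above 0 in both.

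In females 2 of 9 members, Bhlhe40 and Clock, passed, against 22.5% of all named genes. Both were lower, as were 11.6% of all genes, and 0 of 9 were higher, against 10.9%. Other gene lists are given beside the 14% of all genes called higher and 17.8% called lower in males. Among markers of other cells in males, 4 of 5 leukocyte, 2 of 2 erythrocyte and 3 of 4 connective tissue genes were lower in olfactory arrays. The mean leukocyte level (log2) ran from 8.93 to 9.98 in male olfactory and from 10.94 to 11.79 in male respiratory arrays. Of 17 immediate early genes 0 were higher and 4 lower (median change -0.44), and of 9 glucocorticoid-responsive genes 1 was higher and 4 were lower (median -0.57). The part of these lists in the clock gene differences was not tested.

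The comparison of the sexes asks whether normal expression differs between male and female rats. No clock gene passed in either tissue. By limma 0 of 9 members passed in respiratory epithelium, where 0.0141% of all genes did, and 0 of 9 in olfactory epithelium, where 0.0211% did. At an unadjusted p under 0.05 the members' count was also 0 in each tissue. The largest values were Per1 in respiratory epithelium, 0.68 higher in females (SE 0.44, adjusted p = 1.00), and Bhlhe40 in olfactory epithelium, -0.83 (SE 0.51, adjusted p = 0.969). The difference between the sexes in the tissue contrast was tested as an interaction, with 0 of 9 members passing, 0 at an unadjusted p under 0.05, and 0% of all genes. Its values ran from -0.57 (Clock, SE 0.41) to 0.25 (Per3, SE 1.14). Beside male tissue differences of -1.003 for Clock and -1.39 for Per3 these SEs were wide. The SE was 0.46 for Bhlhe41, 0.42 for Cry1, 0.37 for Cry2 and 0.77 for Per1, against male differences of 0.92, 0.77, 0.55 and 0.79. For Per2 and Dbp the SEs (0.61 and 0.77) exceeded the male differences (0.24 and 0.20). For all these genes an interval of about 2 SE held both 0 and an effect of the size of the male tissue difference, positive or negative. For Clock and Bhlhe41 (0.08) it did not hold the effect that would cancel the male difference in females. Bhlhe40 had -0.50 (SE 0.62), against -2.10 in males.

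Age was compared in respiratory epithelium, with 4 arrays each at 11, 13 and 14 weeks. The F test of limma, with sex as a covariate, passed 0 of 9 members and 0% of all genes, and 0 members at an unadjusted p under 0.05. Bhlhe41 had the lowest p of the members (0.0951, adjusted p = 0.665), with signals of 445 to 875 at 11 weeks, 258 to 880 at 13 weeks and 409 to 559 at 14 weeks. The fitted change of Per3 from 11 to 14 weeks was -1.37 (log2, SE 0.78). Its adjusted p of 0.700 is that of the F test over all ages, and single age contrasts were not tested by themselves. In olfactory epithelium age was tested only as an alternative fit over the 8 arrays, with sex as a covariate, and no member passed. Bhlhe40 read 235 to 348 there in the 3 rats aged 11 weeks, 67.4 and 106 at 13 weeks and 89.1 to 130 in the 3 rats aged 14 weeks. The 3 rats aged 11 weeks were all male, and they were the highest of the 8 olfactory arrays. Their arrays also had the highest median signals over all probe sets, 158 to 188, against 134 to 153 on the other olfactory arrays. Over the 8 arrays Bhlhe40 had r = 0.943 with that median. Age, sex and this array level cannot be told apart here.

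Within groups of one sex and tissue, the clock genes differed strongly in how much they varied. The pooled within-group SD of Per3 was 1.33 (log2), which put it at percentile 99.6 of 12447 genes above background on at least 10 arrays. The lowest Per3 values, 38.3 on female respiratory 8 and 22.0 on male olfactory 1, were below background. Dbp had an SD of 0.886 (percentile 96.6) and Per1, below background on 2 male respiratory arrays, of 0.845 (percentile 95.5). The genes compared were not matched for signal level. The median gene had 0.438. Bhlhe40 at 0.686 and Per2 at 0.681 were also above that median, and Bhlhe41 at 0.488 was close to it. Clock, the activator, at 0.432, Cry1 at 0.428 and Cry2 at 0.349 did not vary more than the median gene. Outside the members, Nr1d1 had 0.667, its paralogue Nr1d2 0.632 and Bmal1 0.581.

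The array-to-array pattern was clearest in Dbp. In respiratory epithelium its signal (1387874_at) ran from 368 through a median of 795 to 2261 over 12 arrays. The highest were female 3 at 2261, male 3 at 1787 and female 7 at 1444, and the lowest female 8 at 368, male 1 at 369 and female 4 at 374. Both sexes were among the highest and among the lowest, and so were rats aged 11 and 13 weeks. Per3 ran from 38.3 through 504 to 1557, with female 3 again highest and female 8 lowest. Per2, from 292 through 776 to 1298, had the same highest and lowest rat.

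Pairs of clock genes were correlated over the 12 respiratory arrays, as planned beforehand. After Benjamini-Hochberg adjustment over the 36 pairs 4 passed, all with positive r, against 6 at an unadjusted p under 0.05. By Spearman's rho 5 passed. How often pairs drawn from all named genes reach such values was computed for neither tissue, so these counts have no background share beside them. Per2 and Per3 had r = 0.886 (permutation p = 8e-05, adjusted p = 0.00288; rho = 0.860, p = 0.00051). Per3 and Dbp had r = 0.804 (permutation p = 0.00087, adjusted p = 0.0157; rho = 0.811, p = 0.00232). Per2 and Dbp had r = 0.818 (permutation p = 0.00191, adjusted p = 0.0172; rho = 0.895, p = 0.00019). Dbp and Bhlhe41 had r = 0.814 (permutation p = 0.00153, adjusted p = 0.0172; rho = 0.853, p = 0.00081). Without the 2 arrays farthest from the median of the first gene, the 4 values were 0.815, 0.822, 0.711 and 0.714. These are the genes whose promoter sequences are printed above. By Pearson's r Bhlhe41 passed only with Dbp. With Per2 its r was 0.670 (permutation p = 0.0193, adjusted p = 0.116). By rho Per2 and Bhlhe41 were the 5th pair that passed (rho = 0.818, permutation p = 0.00213, adjusted p = 0.0167). This pair also passed by r with the hybridization control level removed (0.736, adjusted permutation p = 0.0450) and without female respiratory 4 (0.779, adjusted permutation p = 0.0397). With Per3 Bhlhe41 had r = 0.511 (permutation p = 0.0890, adjusted p = 0.337) and rho = 0.678 (permutation p = 0.0186, adjusted p = 0.112). The lowest r of the 36 was -0.526, between Cry1 and Dbp (permutation p = 0.0801, adjusted p = 0.337; rho = -0.490, p = 0.110).

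The pairs kept their sign within each sex. In the 6 males r was 0.851 for Per2 and Per3, 0.905 for Per3 and Dbp, 0.942 for Per2 and Dbp and 0.646 for Dbp and Bhlhe41. In the 6 females the same pairs gave 0.973, 0.772, 0.816 and 0.931. No pair passed the adjusted test within a sex. As deviations from the mean of each age the 4 values were 0.882, 0.829, 0.822 and 0.796. Each still passed, by permutations that do not count the fitted age means, and 4 arrays per age are too few for values within an age.

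Single arrays mattered. Without female respiratory 3, the rat with the highest Dbp, only Per2 and Per3 passed, and the other 3 pairs each had an adjusted p of 0.0701. Per2 and Dbp also missed the threshold without female respiratory 8 (adjusted p = 0.058) or male respiratory 3 (adjusted p = 0.0525). Over respiratory arrays the level of the hybridization controls had r = -0.869 with Per3, -0.739 with Per2, -0.525 with Dbp and -0.259 with Bhlhe41, and the mean erythrocyte marker level had r = -0.671 with Per3. With the control level removed from each gene the 4 pairs gave 0.731, 0.825, 0.750 and 0.824. Each still passed, Per2 with Per3 and Per2 with Dbp only at an adjusted permutation p of 0.0450. This setting was not planned, and its permutations do not count the fitted slope. The part of the control level in these pairs was not tested. With the mean of all probe sets of a gene, Per2 with Per3 and Per2 with Dbp each had an adjusted p of 0.0984. That mean includes the Per2 probe set that was above background on 1 array.

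**Figure D3:**
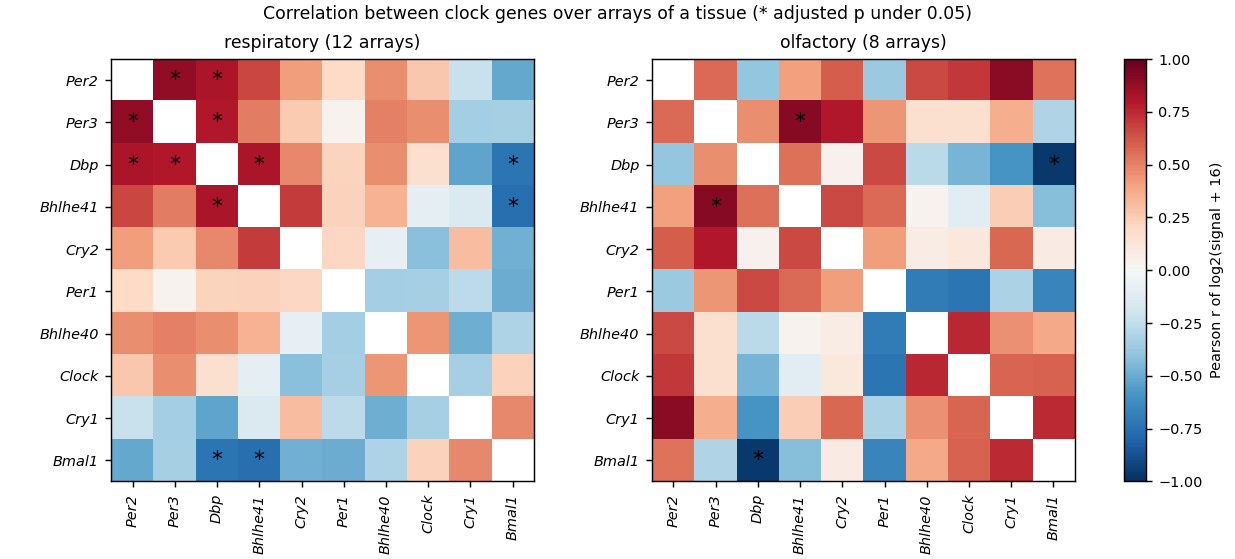
Colours give Pearson's r between clock genes over 12 respiratory (left) and 8 olfactory (right) arrays on the log2(signal + 16) scale, and asterisks an adjusted p under 0.05, adjusted over the 36 pairs of members or the 9 relations with Bmal1. In respiratory epithelium 4 pairs among Per2, Per3, Dbp and Bhlhe41 carry an asterisk, and Bmal1 is negatively related to Dbp in both tissues.

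In olfactory epithelium 1 of 36 pairs passed over 8 arrays, Per3 and Bhlhe41, with r = 0.909 (exact permutation p = 0.00102, adjusted p = 0.0366; rho = 0.905, exact permutation p = 0.00456). By Spearman's rho 0 pairs passed, and 6 had an unadjusted p under 0.05 by Pearson's r. Without the 2 arrays farthest from the median of Per3 its r was 0.788. This call was fragile, since it ended without male olfactory 1 (adjusted exact permutation p = 0.219), 2 (0.0643), 3 (0.0536), 4 (0.171) or 7 (0.121) or without female olfactory 8 (0.0714). The 4 pairs that passed in respiratory epithelium had olfactory r of 0.567 for Per2 and Per3, 0.463 for Per3 and Dbp, -0.386 for Per2 and Dbp and 0.551 for Dbp and Bhlhe41. The difference between tissues in these values was not tested.

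Bmal1, the partner of Clock, is not a member but is the gene whose RNA runs against Dbp in a turning clock, and its relation to the 9 members was computed after the other values had been seen. In olfactory epithelium Dbp ran from 430 to 2280 and Bmal1 from 143 to 383. Male 10 had the highest Dbp and the lowest Bmal1, and male 1 the lowest Dbp and the highest Bmal1. Pearson's r between them was -0.965 over 8 arrays (exact permutation p = 0.000546, adjusted over 9 relations 0.00491; rho = -0.905, exact permutation p = 0.00456). It was -0.932 without the 2 arrays farthest from the median of Bmal1 and -0.964 in the 6 males, and it passed without any single array, with adjusted p from 0.00536 to 0.0393.

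In respiratory epithelium the same 2 genes had r = -0.733 over 12 arrays (permutation p = 0.00704, adjusted p = 0.0317; rho = -0.622, p = 0.0341). Male 3 had the lowest Bmal1 at 159 and female 3 the next at 212, and these 2 rats had the highest Dbp. The value was -0.834 in males and -0.654 in females, and -0.612 without the 2 arrays farthest from the median of Bmal1. The adjusted p was above the threshold, from 0.0534 to 0.113, without any one of male 1, male 3, male 7, female 3 or female 4. Bhlhe41 had r = -0.752 with Bmal1 in respiratory epithelium (permutation p = 0.00485, adjusted p = 0.0317; rho = -0.699, p = 0.0139) and lost the call without the same 5 arrays. As deviations from the age mean its adjusted p was 0.0553. By rho neither respiratory relation passed, with an adjusted p of 0.154 for Dbp and 0.125 for Bhlhe41. The other 7 members did not pass in respiratory epithelium, nor did the other 8 in olfactory epithelium. Cry1 had the highest positive r with Bmal1 in both tissues, 0.483 in respiratory (permutation p = 0.113, adjusted p = 0.170) and 0.748 in olfactory epithelium (exact permutation p = 0.0368, adjusted p = 0.166).

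**Figure D4:**
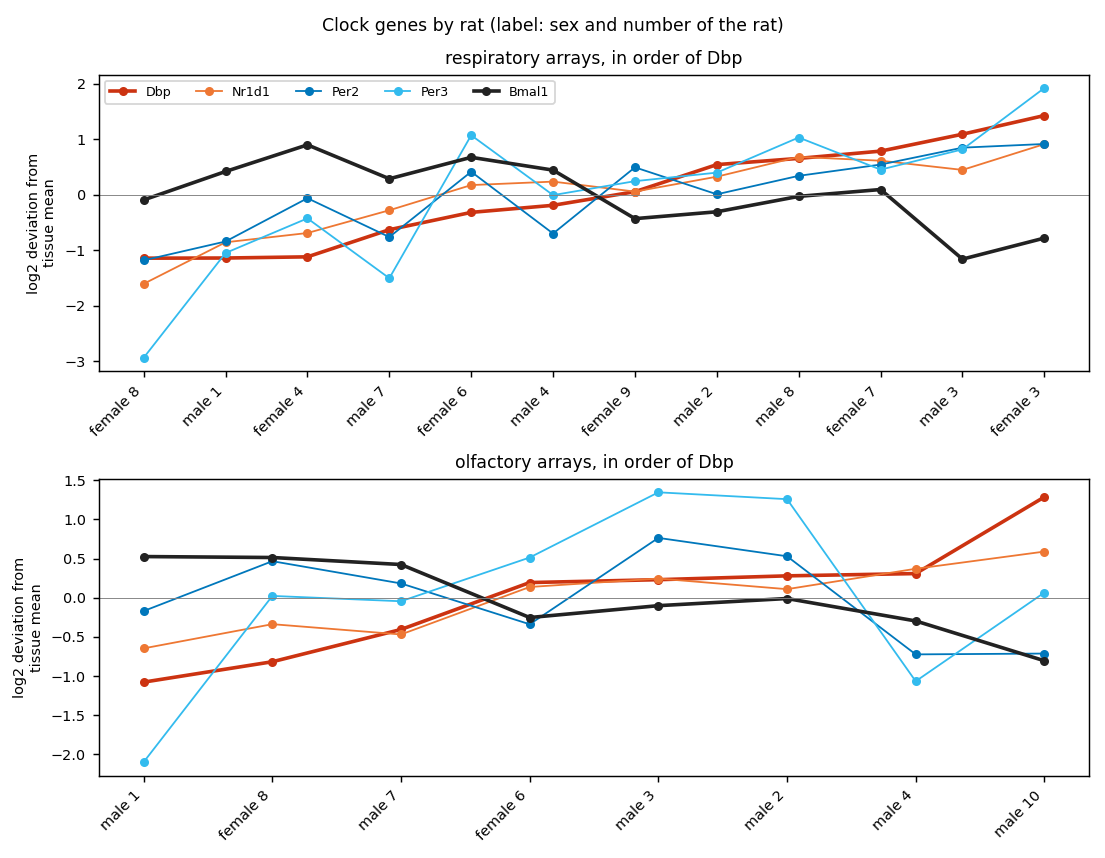
Lines give each gene's log2 deviation from its mean in the tissue, with rats in order of Dbp, in 12 respiratory (top) and 8 olfactory (bottom) arrays. Nr1d1 rises with Dbp from left to right and Bmal1 falls, while Per3 reaches farther from its mean than the others.

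The genes whose array-to-array pattern was most like that of a member were sought among all named genes, by Pearson's r of deviations from the group mean over the 20 arrays. For Dbp the nearest of 14216 genes was Nr1d1 (r = 0.904), the clock's repressor of Bmal1, and the next was Nr1d2 (r = 0.784). Bhlhe41 held rank 3, Per3 rank 8 and Per2 rank 155 in that order. Seen from the other gene, Dbp held rank 158 for Per3 and rank 2710 for Per2. For Bhlhe41 the nearest gene was Dbp (r = 0.769) and the next Noct, which encodes nocturnin, a protein named for its nightly RNA peak (r = 0.746). For the other 7 members neither of the nearest 2 genes belonged to the clock list, among them Pphln1 for Clock (r = 0.933), Appl2 for Per2 (r = 0.888) and Dpy19l3 for Per3 (r = 0.884). With the hybridization control level removed, Nr1d1 stayed nearest to Dbp (r = 0.919), Kifc3 took the place of Nr1d2 (r = 0.769), and Dbp stayed nearest to Bhlhe41 (r = 0.755), while the nearest gene changed for Clock, Per1, Per2, Per3, Cry1, Cry2 and Bhlhe40. These values describe likeness over shared arrays, carry no test and say nothing of shared control.

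The last comparison asks whether a rat with a high value in one tissue also had a high value in the other. Over the 7 rats with both tissues 0 of 9 members passed after adjustment, by Pearson's r or by rho. At an unadjusted exact permutation p under 0.05 there was 1 by Pearson's r, Dbp, and 2 by rho, Dbp and Clock. Dbp had r = 0.817 (exact permutation p = 0.031, adjusted over the 9 genes 0.277; rho = 0.821, exact permutation p = 0.0341). In both tissues male 1 and female 8 had the lowest Dbp of the 7, then male 7. Without the 2 rats farthest from the respiratory median its r was 0.982. As deviations from the mean of each age it was 0.913 (permutation p = 0.000794, adjusted p = 0.00714). As deviations from the mean of each sex it was 0.704 (adjusted permutation p = 0.363). Means of so few arrays use up degrees of freedom that the permutations do not count. The p-values of deviations are therefore not exact and can be too low, and the pass by age deviations carries little weight.

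For the other members the between-tissue r was 0.721 for Bhlhe40, 0.704 for Per1, 0.594 for Bhlhe41, 0.404 for Per3, 0.290 for Per2, 0.098 for Cry1, 0.010 for Cry2 and -0.591 for Clock. With 5 males and 2 females, too few rats of either sex were available for a correlation within a sex. Per1 fell to 0.039 and Per3 rose to 0.866 without the 2 farthest rats, so both rest on few animals. Per2 gave 0.816 with the hybridization control level removed and -0.140 without male 3, and Clock gave 0.223 with the mean of all its probe sets, so neither has a settled direction. For Clock rho was -0.821 (exact permutation p = 0.0341, adjusted p = 0.154).

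**Figure D5:**
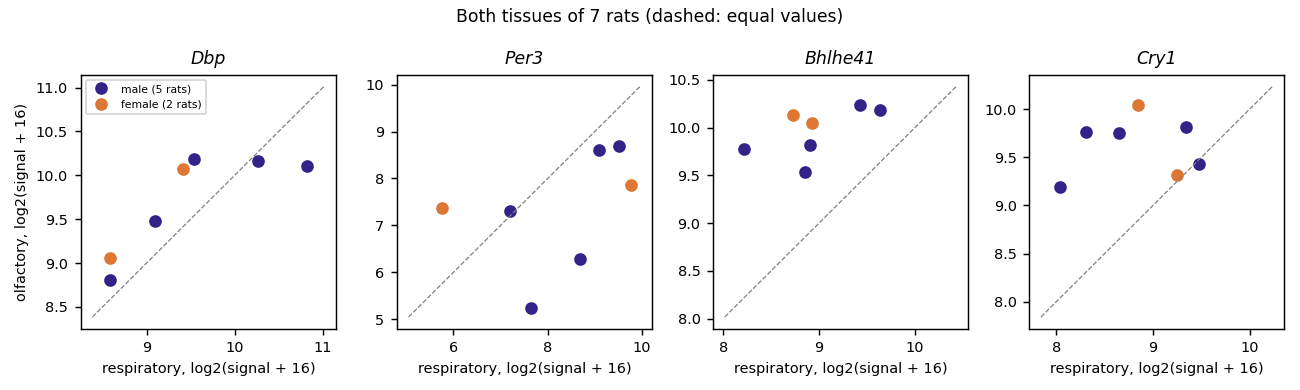
Each point is 1 of 7 rats, with log2(signal + 16) in respiratory (horizontal) and olfactory (vertical) epithelium, and the dashed line marks equal values. Dbp follows the line (r = 0.817), Bhlhe41 lies above it in all 7 rats, and Cry1 shows no common order of rats (r = 0.098).

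The wider clock pathway was described by 23 further genes. In males 1 of 23 was higher and 2 were lower in olfactory epithelium, against 14% and 17.8% of all named genes, with a median change of -0.23. Timeless, which stabilises replication forks and has a debated role in the mammalian clock, ran from 106 through 140 to 200 in respiratory and from 287 through 440 to 837 in olfactory arrays (1.59, SE 0.25, adjusted p = 3.2e-05), without overlap. Rora, a nuclear receptor that activates Bmal1, changed by -1.24 (SE 0.35, adjusted p = 0.00988), and Gsk3b, a kinase acting on clock proteins, by -0.998 (SE 0.25, adjusted p = 0.0048). The Rora call did not hold over the mean of its probe sets (-0.22, adjusted p = 0.616), with the rat as a fixed block (-1.17, adjusted p = 0.0744), with the integrity covariate (-0.92, adjusted p = 0.235) or at 11 weeks alone (-0.67, adjusted p = 0.126). That of Gsk3b ended with the integrity covariate (-0.32, adjusted p = 0.768) and at 11 weeks alone (-0.59, adjusted p = 0.147). In females 0 of 23 were higher, against 10.9% of all genes, and 1 was lower, against 11.6%. That gene was Rora, which was above background on neither olfactory array and was at least 3.47-fold lower there (adjusted p = 0.00225). Its call ended without female olfactory 6 (adjusted p = 0.0605), over the mean of its probe sets (-1.004, adjusted p = 0.0906) and with the rat as a fixed block (-2.03, adjusted p = 0.249). Bmal1 changed by -0.48 (SE 0.31, adjusted p = 0.292) and Nr1d1 by -0.45 (SE 0.35, adjusted p = 0.384) in males. No pathway gene passed the age test in respiratory epithelium. With sex as a covariate Bmal1 was 1.11 (SE 0.34) higher at 13 than at 11 weeks there, from mean log2 levels of 9.14 and 8.16. Its limma adjusted p of 0.665 belongs to the F test over the 3 ages, and this single contrast was not tested by itself.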

How the data were processed

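RNA of 20 nasal epithelium samples was measured on Affymetrix rat genome arrays. The deposited values are intensity, a linear signal per probe set, made by the authors with GCOS 1.0, per the submitters' processing notes. Neither the labels nor those notes state the algorithm or its scaling target. Trimming 2% at each end left a mean near 500 on every array, so the deposited scaling was kept, which assumes a like total RNA signal in each tissue. Values were taken as log2(signal + 16). Adding 16 makes changes of dim probe sets smaller.

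Gene names came from the platform's annotation. 20826 probe sets had 1 symbol, 436 had several and 9780 had none, and 57 control probe sets were left out. The probe set with the highest mean stood for a gene. All tests of tissue, sex and their interaction used 1 limma 3.58.1 fit (R 4.3.3, trended variance) of the 4 group means over 20 arrays. Age was tested by an F test over the 12 respiratory arrays, with sex as a covariate, and as alternatives over the 8 olfactory and over all 20 arrays. P-values over the 31042 probe sets were adjusted after Benjamini and Hochberg and called under 0.05. Correlations used two-sided permutation tests, exact for up to 9 arrays and with 100000 resamples otherwise. The fits and correlations were tested on simulated data.

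Arrays of one sex and number come from one animal, per the labels, so a fit with the animal as a block is given where it changes a call. Over all probe sets the 7 rats' tissue deviations had a consensus correlation of 0.0386. The genes named were all 9 members, the 2 genes nearest to each, and pathway genes called by tissue in males or by age. Bmal1 and Nr1d1 were named outside this rule, after their values were seen. The members and lists were chosen with earlier results of these data known.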

Additional observations from a re-analysis of the deposited data

How the results depend on the processing

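The count of members called in males (4) was 0 with the RNA integrity number as covariate, 2 in 11-week rats alone and 3 to 5 when 1 array was left out. Counting probe sets in place of genes gave 7 of 15. Within a sex the integrity numbers of the tissues did not overlap, so the covariate fit cannot well separate tissue from integrity. In it the male changes of Clock, Bhlhe41 and Cry1 were no smaller than in the main fit, and that of Bhlhe40 was smaller. In females (2) it was 5 after scaling to the same median log2 signal, 1 with the integrity covariate, 0 with the animal as a fixed replicate block (pairing the tissues of 2 rats) and 2 to 3 when 1 array was left out. The 4 respiratory pairs became 2 with the mean of all probe sets, 0 in males only and 0 in females only, where 6 arrays leave little room under the adjustment, and 1 to 5 when 1 array was left out. The 1 olfactory pair became 0 after quantile normalization, 0 as deviations from the sex mean, 6 as deviations from the age mean and 0 in males only, and 0 to 3 when 1 array was left out. Between tissues the count of 0 became 1 as deviations from the age mean and stayed 0 when 1 rat was left out. Deviations from age means of 2 to 4 arrays use up degrees of freedom that the permutations do not count. The cause of these changes was not tested beyond the smaller number of arrays. No result changed direction past the threshold, and the pairing changed no other call of a member than those given above. The counts of 0 for sex, age and the interaction held under every alternative run.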
